A study of Mus musculus with 32 samples.

Results

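The miRNA cluster that runs from miR-322 to miR-450b is a run of 7 microRNA (miRNA) precursors on one strand of mouse chromosome X. Its members were found by base name in the deposited small RNA table of mouse mesenteric arteries, taking every row for either arm of miR-322, miR-503, miR-351, miR-542, miR-450a in any copy, and miR-450b. The rule reads names alone. The rule found 13 of 870 miRNA rows. Of these, 6 passed the filter for testing, a normalized signal of at least 1 in at least 8 libraries, and they were miR-351-5p, miR-322-5p, miR-322-3p, miR-542-3p, miR-450a-5p and miR-450b-5p. The other 7 rows, miR-503-3p, miR-542-5p, miR-503-5p, miR-351-3p, miR-450b-3p, miR-450a-2-3p and miR-450a-1-3p, fell under it and are described by their reads.

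The study asked how endothelin-1 made in excess by the endothelium changes small RNAs of resistance arteries. ieCre mice, the controls, carried a Cre recombinase driven by the Tie2 promoter, which is active in endothelial cells, and switched on by tamoxifen. ieET-1 mice, an inducible model of human endothelin-1 overexpression, carried the same Cre. All mice were males of 10 to 12 weeks, controls included all received tamoxifen (1 mg/kg per day under the skin for 5 days), and arteries freed of fat and veins were taken 16 days ("short term") or 3 months ("long term") later. Libraries with values numbered 7 for ieCre short term, 8 for ieET-1 short term, 7 for ieCre long term and 8 for ieET-1 long term, and each carries its own animal number in the labels. The table holds miRNAs only, so it gives no check of the endothelin-1 transgene.

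miRNAs are cut from hairpin precursors as a pair of arms, named 5p and 3p, and the arm loaded into an Argonaute protein represses messenger RNAs that match its seed, the bases near its 5′ end. Members such as miR-322 and miR-503 are conserved on the mammalian X chromosome, where miR-322 is known in humans as miR-424, and they are studied as a brake on cell division and growth. In mouse muscle cells miR-322 and miR-503 repress the cell cycle phosphatase Cdc25a, and in human endothelial cells miR-424 and miR-503 repress FGF2 and its receptor FGFR1. In human cells miR-542-3p represses survivin, an inhibitor of cell death that also acts in cell division.

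The sequences below show which targets the cluster can address, since the seed (bases 2 to 8, in capitals) sets them. All 13 members matched a mature sequence in RefSeq (GRCm38.p6), from which these 12 were taken, 5′ to 3′. The first 4 are the miR-15/16-type seeds and the next 3 the miR-125 seed. The last 5 are members whose seed was found in no row outside the cluster, among the 696 of 870 rows matched to a sequence by name.
miR-322-5p: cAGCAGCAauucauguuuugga
miR-503-5p: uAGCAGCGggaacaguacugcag
miR-16-5p (outside the cluster): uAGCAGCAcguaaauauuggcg
miR-195a-5p (outside the cluster): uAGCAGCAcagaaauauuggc
miR-351-5p: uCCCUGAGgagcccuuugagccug
miR-125a-5p (outside the cluster): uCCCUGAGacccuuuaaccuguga
miR-125b-5p (outside the cluster): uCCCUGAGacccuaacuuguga
miR-322-3p: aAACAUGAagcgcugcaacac
miR-503-3p: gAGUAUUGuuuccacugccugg
miR-542-3p: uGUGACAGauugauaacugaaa
miR-450a-5p: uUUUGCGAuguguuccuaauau
miR-450b-5p: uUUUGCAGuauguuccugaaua
miR-322-5p held the seed of miR-15a-5p, miR-15b-5p, miR-16-5p, miR-195a-5p and miR-497-5p. miR-503-5p shared only bases 2 to 7 with them, and miR-351-5p held the seed of miR-125a-5p and miR-125b-5p. miR-450a-5p and miR-450b-5p, although neighbours with similar sequences, had different seeds.

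The 7 precursors lie on the minus strand at chrX:53047997-53054349 (GRCm38, GENCODE M21), a span of 6353 bases. In the direction of transcription the order is Mir322, Mir503, Mir351, Mir542, Mir450-2, Mir450-1 and Mir450b. Mir322 and Mir503 are 200 bases apart and Mir503 and Mir351 630 bases, followed by 3767 bases without a precursor up to Mir542. No GENCODE gene overlaps a precursor, while the lincRNA Gm28730 (chrX:53051194-53053159) lies between Mir351 and Mir542. In RefSeq the noncoding gene C430049B03Rik (chrX:53053112-53057190) covers Mir351, Mir503 and Mir322. miR-450a-5p is cut from 2 precursors, Mir450-1 and Mir450-2, with the same mature sequence, so its reads cannot be assigned to either.

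The miRNA reads recovered from the deposited signal ranged from 1820166 to 35531345 per library, and 1 read was worth a signal of 0.0178 to 0.480. Together the cluster members held 46156 reads. In 1 pair of libraries, ieCre short term mouse 8 and ieET-1 short term mouse 258, the log2 signals had r = 0.999936, against 0.9963 for the next of 435 pairs. Of 537 miRNAs with at least 10 reads in these libraries, 381 had more reads in mouse 8, 156 had equal reads and 0 had more in mouse 258, so these libraries, labelled as separate mice of different genotype, may not be independent. Animal numbers fall into ranges, below 1000 and 8000 or above at short term and 8000s and 9000s at long term, and the labels give no sequencing batch. Marker miRNAs of smooth muscle (all 4 rows of miR-143 and miR-145a) and endothelium (both rows of miR-126) were above 0 in every library. So were all 5 fibroblast rows (miR-199a, miR-199b and miR-214), all 3 erythroid rows (miR-451a and miR-144) and 5 of 8 leukocyte rows.

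Mature levels differed widely along the cluster. miR-351-5p stood at 47.0 ± 17.2 (SD, n = 30 libraries) and made up 66.4% ± 9.79 of the cluster's summed signal, ranking at 110 of the 870 rows. miR-322-5p came next at 11.6 ± 4.28, or 16.9% ± 5.09 of the sum, and miR-351-5p exceeded it in 30 of 30 libraries. miR-322-3p (2.98 ± 1.37), miR-542-3p (2.89 ± 1.46) and miR-450a-5p (2.79 ± 1.78) followed at levels that did not differ beyond their spread: miR-322-3p was above miR-542-3p in 17 of 30 libraries, and miR-542-3p above miR-450a-5p in 15. miR-450b-5p was lower at 0.964 ± 0.446 and lay below miR-450a-5p in 27 libraries. A read stands for a whole mature miRNA of similar length, so these signals are not divided by length, but adapters join different small RNAs with unequal ease, and a ratio between miRNAs is of reads rather than molecules.

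**Figure D1:**
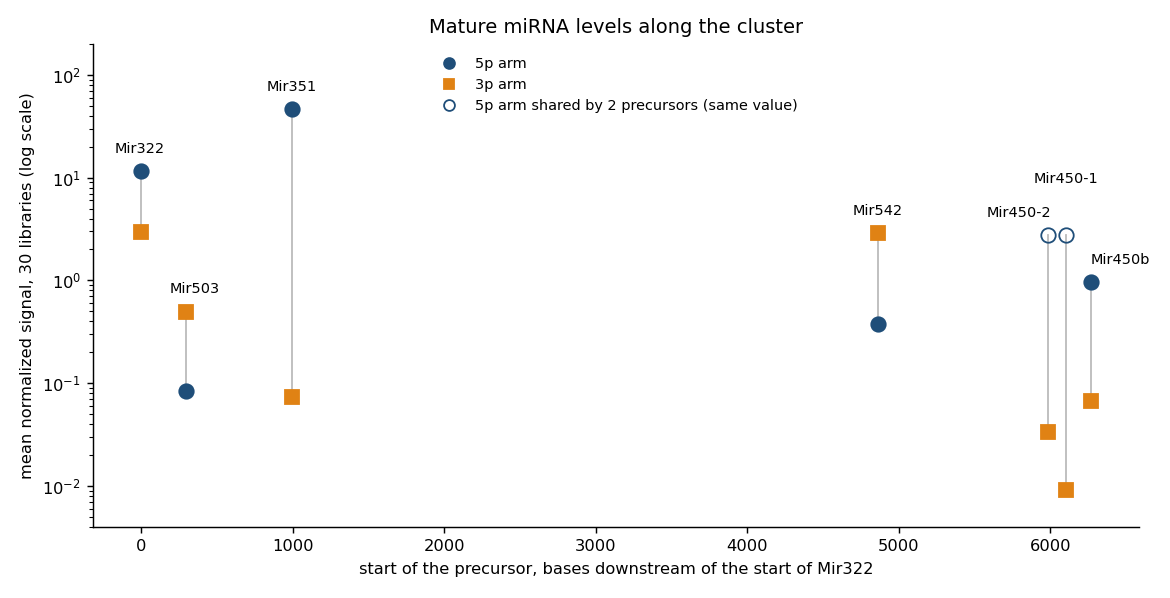
Mean normalized signal over 30 libraries (log scale) of each mature arm, placed at the start of its precursor in bases downstream of the start of Mir322. Circles are 5p arms and squares 3p arms, and open circles mark miR-450a-5p, drawn at both of its precursors. miR-351-5p at 47.0 is the highest point, and Mir503, between Mir322 and Mir351, has both arms under 1.

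Position did not order the levels. Mir503, 295 bases downstream of the start of Mir322 and 701 bases upstream of that of Mir351, gave only 389 reads in all 30 libraries, against 10404 for miR-322 and 31096 for miR-351. Its arms were also divided the other way. For miR-322 the 5p arm held 79.3% of the reads (95% exact Clopper-Pearson interval 78.5 to 80.0) and exceeded the 3p arm in 30 of 30 libraries. For miR-503 the 5p arm, which carries the miR-15/16-type seed, held 11.8% (8.79 to 15.5), with 46 reads against 343 for miR-503-3p. miR-503-3p was ahead in 24 libraries, miR-503-5p in 1, and 5 were equal, of which 4 had no read of either arm. The hairpins are printed with both mature arms in capitals (RefSeq, GRCm38.p6, minus strand).
Mir322 (chrX:53054255-53054349): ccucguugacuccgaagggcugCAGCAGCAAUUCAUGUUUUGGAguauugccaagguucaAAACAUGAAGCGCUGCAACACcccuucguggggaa
Mir503 (chrX:53053984-53054054): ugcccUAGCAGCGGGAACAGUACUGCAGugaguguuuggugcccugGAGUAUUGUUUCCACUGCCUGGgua

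The remaining precursors each had a dominant arm in the summed reads. miR-351 was read almost wholly as 5p, 31072 reads against 24 (99.9%, 99.89 to 99.95). miR-542 was read mainly as 3p, the survivin-directed arm, with 1488 reads against 272 (84.5%, 82.8 to 86.2), and 3p led in 30 of 30 libraries. miR-450b was read mainly as 5p, 574 reads against 38 (93.8%, 91.6 to 95.6). These intervals, and the limits for values of 0, cover counting error only. They treat reads as independent, although reads amplified by PCR are not independent molecules, and they leave out the spread between mice. The 5p share of miR-322, for example, ran from 55.2% to 100% over the 30 libraries.

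**Figure D2:**
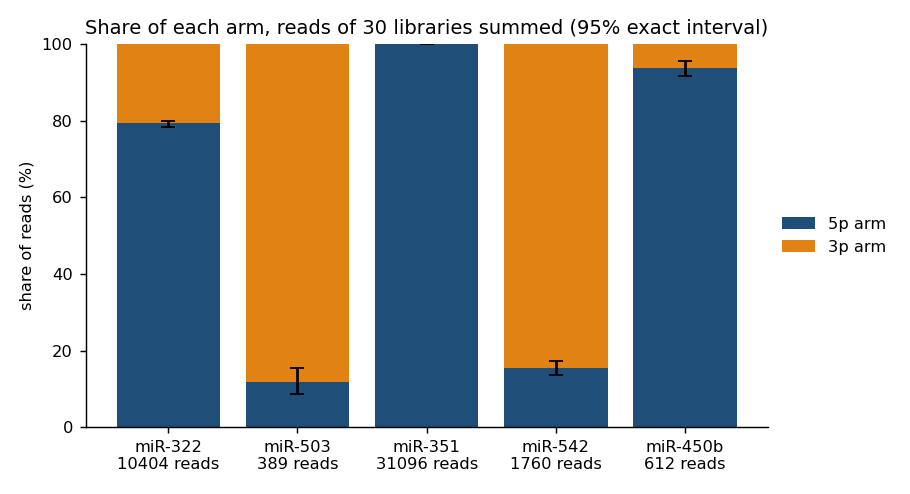
Share of reads (%) of the 5p arm (blue) and 3p arm (orange) of 5 precursors, reads of 30 libraries summed, with 95% exact intervals. The 5p arm holds 79.3% for miR-322 but 11.8% for miR-503.

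Within their seed families, taken from the rows matched to a sequence, the cluster members were a small part. miR-322-5p made up 0.352% ± 0.105 (SD, n = 30) of the signal that carries its seed, in which miR-16-5p stood at 2800 ± 1112, miR-195a-5p at 367 ± 100.2 and miR-497-5p at 162 ± 62.5. miR-15a-5p (35.8 ± 11.2) was also above miR-322-5p, while miR-15b-5p (10.3 ± 2.93) was at a similar level. miR-351-5p made up 2.04% ± 0.709 of the miR-125 seed, beside miR-125a-5p at 1415 ± 699.7 and miR-125b-5p at 996 ± 337. By group the share of miR-322-5p was 0.359% ± 0.0813 in ieCre and 0.338% ± 0.0472 in ieET-1 mice at 16 days, and 0.338% ± 0.164 and 0.371% ± 0.117 at 3 months. The share of miR-351-5p was 2.39% ± 0.658 and 2.22% ± 0.525 at 16 days, and 1.71% ± 0.651 and 1.85% ± 0.875 at 3 months, in the same order.

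None of the 6 tested members was called between ieET-1 and ieCre mice. At 16 days limma, at a Benjamini-Hochberg adjusted p below 0.05 over 354 miRNAs, called 0 of 6 members and 0 miRNAs in all (0.0%), as did edgeR and DESeq2 on the recovered reads. At an unadjusted p below 0.05 limma gave 1 member, miR-450b-5p, against 9 miRNAs (2.54%). That member had passed the filter mainly through ieCre libraries. At 3 months limma, edgeR and DESeq2 again called 0 of 6 members and 0 miRNAs in all (0.0%), and at an unadjusted p below 0.05 limma gave 0 members against 20 miRNAs (5.65%). The interaction, the test of whether the genotype difference changed with time, also gave 0 members and 0 miRNAs (0.0%) by these 3 tools, with 0 members and 24 miRNAs (6.78%) at an unadjusted p below 0.05 by limma. The members' median log2 difference between genotypes was -0.11 at 16 days and 0.05 at 3 months, beside -0.04 and -0.01 over all 354. For the genotype comparisons, the 95% intervals of 6 of 6 members lay within a 2-fold difference either way on the log2(value + 1) scale at both times, and for the interaction those of 1 of 6. The offset of 1 understates changes of low members, so these intervals do not bound the fold changes of those members. At 16 days miR-450b-5p, for example, was at -0.35 by limma and -0.83 by edgeR. In bulk arteries, fewer cells of a type that makes a miRNA and less of it per cell cannot be told apart.

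Between 16 days and 3 months after tamoxifen, none of the 6 members was called either, although other miRNAs were. In ieCre mice limma called 0 of 6 members beside 28 of 354 miRNAs (7.91%), and at an unadjusted p below 0.05 it gave 1 member (miR-322-5p) beside 92 (26%). edgeR called 30 miRNAs (8.47%) and DESeq2 44 (12.4%), with 0 members each. In ieET-1 mice limma called 0 of 6 members beside 21 miRNAs (5.93%), with 1 member (miR-351-5p) beside 83 (23.4%) at an unadjusted p below 0.05. There edgeR called 38 miRNAs (10.7%) and DESeq2 47 (13.3%), with 0 members each. The members' median log2 change was -0.15 in ieCre and -0.15 in ieET-1 mice, beside -0.13 and -0.09 over all 354. Time since tamoxifen and age cannot be told apart here, and of the animal number ranges only mice numbered 8000 or above were present at both times.

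**Figure D3:**
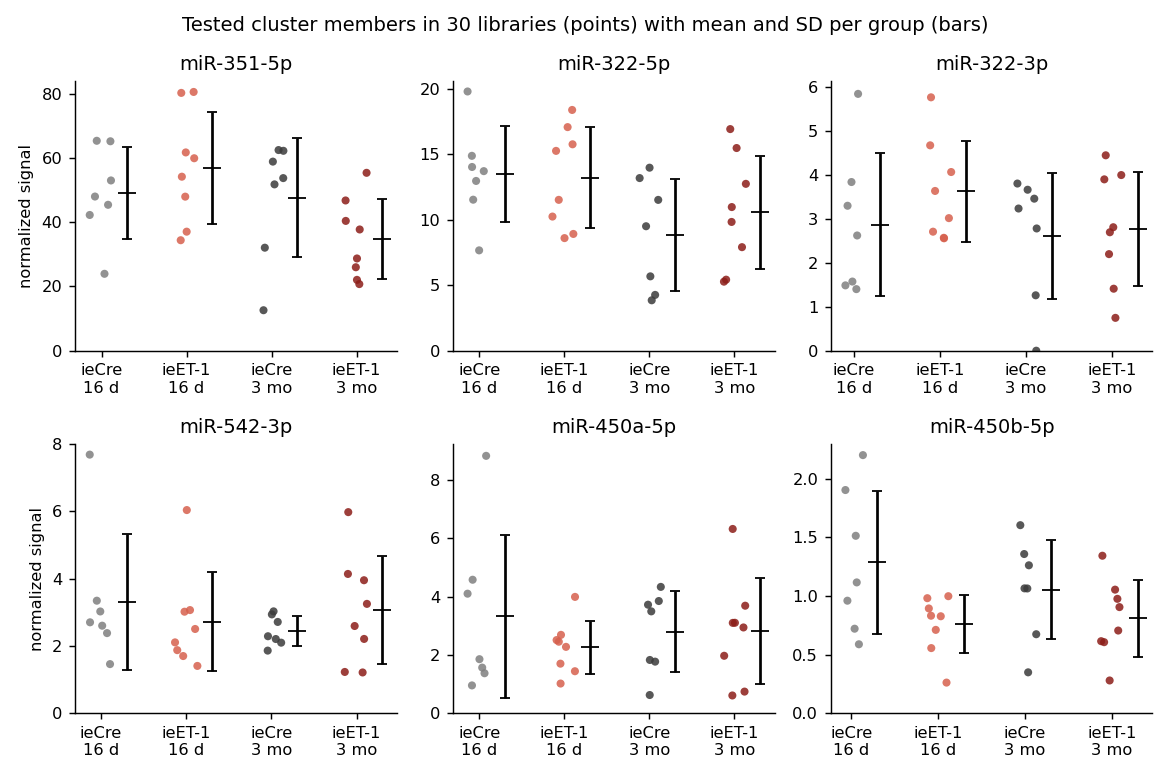
Normalized signal (linear scale) of the 6 tested members in every library, 7 or 8 per group, with the mean and SD of each group beside the points. The groups overlap for every member, and ieET-1 mice at 3 months have the lowest mean of miR-351-5p at 34.7.

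miR-351-5p, the most abundant member, had its largest difference over time in ieET-1 mice. Its signal ran from 34.4 to 80.5 (median 57.0) in ieET-1 mice at 16 days and from 20.7 to 55.4 (median 33.2) at 3 months. In ieCre mice it ran from 23.9 to 65.3 (median 48.0) at 16 days and from 12.6 to 62.4 (median 53.7) at 3 months. All 8 ieET-1 mice at 3 months lay below the mean of the ieET-1 mice at 16 days, 57.0 ± 17.4, and 4 of them below its lowest value, but the groups overlapped. Its log2 change over time in ieET-1 mice was -0.72 ± 0.28 (SE), a fold of 0.609 (95% interval 0.409 to 0.905), and did not pass the threshold (limma unadjusted p = 0.0159, adjusted p = 0.134). Among ieET-1 mice numbered 8000 or above the change was -0.51 (limma adjusted p = 0.535). In ieCre mice the change was -0.13 ± 0.30 (limma adjusted p = 0.788), and it was above 0 without ieCre long term mouse 9491, at 0.15, and by edgeR, at 0.08, and DESeq2, at 0.06. The interaction of genotype and time was -0.59 ± 0.41 (limma adjusted p = 0.739), so the changes in the genotypes were not shown to differ.

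Between genotypes miR-351-5p overlapped at both times. At 16 days it was 57.0 ± 17.4 in ieET-1 (n = 8) and 49.0 ± 14.3 in ieCre mice (n = 7), with a log2 difference of 0.22 ± 0.29 (limma adjusted p = 0.990). This was 0.49 among mice numbered below 1000 and -0.09 among those numbered 8000 or above. At 3 months it was 34.7 ± 12.4 in ieET-1 and 47.7 ± 18.6 in ieCre mice, with 7 of 8 ieET-1 mice below the ieCre mean and a log2 difference of -0.37 ± 0.29 (limma adjusted p = 0.906). In the 8000s, 3 ieCre mice ran from 58.8 to 62.4 and 6 ieET-1 mice from 20.7 to 55.4, with a log2 difference of -0.82 (limma adjusted p = 0.274). How many of all 354 miRNAs separated in so small a subset was not counted. In the 9000s, 4 ieCre mice ran from 12.6 to 53.7 and enclosed the 2 ieET-1 mice, at 22.05 and 37.7, with a difference of -0.18 (limma adjusted p = 0.948).

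miR-322-5p, the arm with the miR-16 seed, had its largest difference over time in the controls. Its signal ran from 7.66 to 19.8 (median 13.7) in ieCre mice at 16 days and from 3.85 to 13.97 (median 9.50) at 3 months. In ieET-1 mice it ran from 8.60 to 18.4 (median 13.4) and from 5.27 to 16.9 (median 10.4). In ieCre mice 3 of 7 values at 3 months lay below the lowest at 16 days, and the rest overlapped. The log2 change was -0.65 ± 0.28 in ieCre mice, a fold of 0.638 (95% interval 0.429 to 0.9498), and did not pass (limma unadjusted p = 0.0281, adjusted p = 0.133), and it was -0.86 among ieCre mice numbered 8000 or above (limma adjusted p = 0.162). In ieET-1 mice the change was -0.34 ± 0.26 (limma adjusted p = 0.391), and the interaction of 0.30 ± 0.39 did not pass (limma adjusted p = 0.926). Between genotypes the means were 13.2 ± 3.85 in ieET-1 and 13.5 ± 3.65 in ieCre mice at 16 days, a log2 difference of -0.04 ± 0.27 (limma adjusted p = 0.990). At 3 months they were 10.6 ± 4.33 and 8.85 ± 4.26, a difference of 0.27 ± 0.27 (limma adjusted p = 0.948).

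miR-322-3p, cut from the same hairpin, overlapped in all comparisons. In ieCre mice it ran from 1.40 to 5.85 (median 2.62) at 16 days and from 0 to 3.81 (median 3.24) at 3 months. In ieET-1 mice it ran from 2.56 to 5.77 (median 3.33) and from 0.748 to 4.45 (median 2.75). The value of 0 belongs to ieCre long term mouse 9491, where 0 reads allow a signal of up to 1.05. At 16 days 3 of 7 ieCre mice, all numbered below 1000, lay between 1.40 and 1.57, with the lowest ieET-1 mouse at 2.56. How many other miRNAs had such a split was not counted. The log2 difference between genotypes was 0.32 ± 0.30 at 16 days (limma adjusted p = 0.990), 0.69 among mice numbered below 1000 and -0.18 among the rest, and 0.14 ± 0.30 at 3 months (limma adjusted p = 0.973).

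miR-542-3p spread more in some groups than in others. In ieCre mice it ran from 1.46 to 7.68 (median 2.70) at 16 days and from 1.86 to 3.03 (median 2.29) at 3 months. In ieET-1 mice it ran from 1.41 to 6.04 (median 2.31) and from 1.22 to 5.97 (median 2.92). The high value at 16 days in ieCre is mouse 9957, the shallowest library, where it rests on 16 reads. In the group with the least spread, ieCre at 3 months, the mean was 2.45 ± 0.446, and 4 of 8 ieET-1 mice lay above its highest value and 2 below its lowest. Its log2 difference between genotypes was -0.19 ± 0.25 at 16 days and 0.15 ± 0.25 at 3 months (limma adjusted p = 0.990 and 0.973), and the former was -0.01 without the libraries under 5000000 reads.

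miR-450a-5p, from its 2 precursors together, varied most among the ieCre mice at 16 days, from 0.960 to 8.83 (median 1.86). It ran from 0.631 to 4.34 (median 3.50) in ieCre mice at 3 months, from 1.02 to 3.996 (median 2.37) in ieET-1 mice at 16 days and from 0.615 to 6.33 (median 3.03) in ieET-1 mice at 3 months. The highest, 8.83, was ieCre short term mouse 8754, and the groups overlapped. The log2 difference between genotypes at 16 days was -0.23 ± 0.33 (limma adjusted p = 0.990), 0.00 without mouse 8754 and -0.68 by edgeR on the recovered reads (adjusted p = 0.977). At 3 months it was -0.05 ± 0.33 (limma adjusted p = 0.973).

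miR-450b-5p, its lower neighbour, had the smallest genotype p of the 6 tested members. At 16 days it ran from 0.589 to 2.20 (median 1.12) in ieCre and from 0.262 to 0.998 (median 0.830) in ieET-1 mice. At 3 months it ran from 0.350 to 1.60 (median 1.07) in ieCre and from 0.281 to 1.34 (median 0.806) in ieET-1 mice. At 16 days 8 of 8 ieET-1 mice lay below the ieCre mean of 1.29 ± 0.607, but only 2 below the lowest ieCre mouse. The log2 difference was -0.35 ± 0.17 and did not pass (limma unadjusted p = 0.0494, adjusted p = 0.990). It was -0.20 among mice numbered below 1000, -0.54 among those numbered 8000 or above, -0.41 without the near-identical pair, and -0.83 by edgeR on the recovered reads (adjusted p = 0.977), a scale with a smaller offset. At 3 months the difference was -0.17 ± 0.17 (limma adjusted p = 0.948). These values rest on 1 to 74 reads per library, and the member reached a signal of 1 in 4, 0, 5 and 2 libraries of ieCre and ieET-1 at 16 days and ieCre and ieET-1 at 3 months. It thus passed the filter mainly through ieCre libraries, where it was higher. Its genotype p-values are not free of that selection and are given as description.

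**Figure D4:**
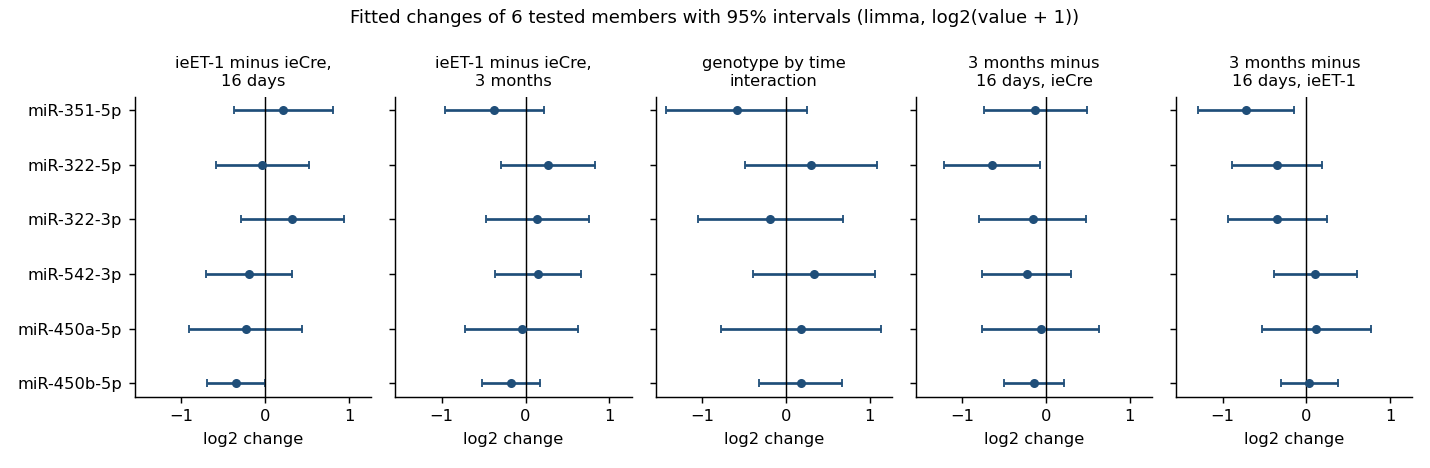
Fitted log2 differences of the 6 tested members with 95% intervals from limma on log2(value + 1), for genotype at 16 days and 3 months, their interaction, and time in ieCre and ieET-1 mice. The intervals of miR-450b-5p at 16 days, miR-322-5p over time in ieCre and miR-351-5p over time in ieET-1 mice leave 0 out, and none passes after adjustment.

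The members under the filter rested on few reads. miR-503-3p had 343 reads, at 0.689 ± 0.298 in ieCre and 0.633 ± 0.212 in ieET-1 mice at 16 days, when every one of the 15 libraries held at least 1 read. At 3 months it was 0.328 ± 0.395 and 0.344 ± 0.249, with 3 of 7 ieCre and 1 of 8 ieET-1 libraries at 0. When all 870 rows were fitted without the filter, its log2 change over time was -0.38 ± 0.16 in ieCre and -0.29 ± 0.15 in ieET-1 mice (limma adjusted p = 0.211 and 0.360). miR-503-5p had 17, 15, 11 and 3 reads in ieCre and ieET-1 at 16 days and ieCre and ieET-1 at 3 months, and its genotype difference at 3 months was -0.20 ± 0.09 (limma unadjusted p = 0.0342, adjusted p = 0.865). The ieCre mean at 3 months rested largely on mouse 9485, where 4 reads gave a signal of 0.916, and 4 of 7 ieCre libraries were at 0. miR-542-5p had 272 reads, with group means of 0.426, 0.466, 0.399 and 0.211 in the same order of groups. The 3p arms of miR-351, miR-450b and both miR-450a copies were at 0 in 15 to 25 of 30 libraries and had 24, 38, 14 and 8 reads for miR-351-3p, miR-450b-3p, miR-450a-2-3p and miR-450a-1-3p. A library at 0 allows up to 3 reads, a signal of 0.0535 to 1.44 depending on its depth, so no absence was detectable for these arms.

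Taken as shares of all miRNA reads rather than on the authors' scale, the cluster looked different over time. Its summed signal was 74.6 ± 16.8 in ieCre and 80.9 ± 18.4 in ieET-1 mice at 16 days and 66.5 ± 22.1 and 55.6 ± 13.98 at 3 months, while its reads per 1000000 miRNA reads were 105.0 ± 29.2, 106.0 ± 44.1, 45.5 ± 21.4 and 51.0 ± 21.3. The total signal of all miRNAs in a library, relative to its geometric mean over the 30 libraries, sets these scales apart. Its group medians were 0.696, 0.685, 1.36 and 1.21 in that order, and it ran from 0.527 to 3.39. The part of this in the time comparisons was not tested. On that read share, limma called 4 of 6 members lower at 3 months in ieCre mice, beside 213 of all 354 miRNAs called lower (60.2%), with a median log2 change of -0.93 over all miRNAs. Relative to that median, the called members were at -0.65 for miR-322-5p, -0.26 for miR-351-5p, -0.03 for miR-542-3p and 0.24 for miR-450b-5p. In ieET-1 mice miR-351-5p was called lower on the read share, at a log2 change of -1.18 (limma adjusted p = 0.0344), beside 18 miRNAs called lower (5.08%), and lay -0.71 from the median of all miRNAs. With libraries weighted by their quality on the authors' scale, miR-351-5p was also called lower there, at -0.83 (limma with array weights, adjusted p = 0.0105), beside 60 miRNAs called lower (16.9%).

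Marker sums of several cell types had other medians at 3 months than at 16 days on the authors' scale. The summed signal of 4 of 4 rows of miR-143 and miR-145a had medians of 260179 in ieCre and 279081 in ieET-1 mice at 16 days and of 643165 and 656520 at 3 months, with ranges of 195656 to 397684, 210992 to 700247, 385949 to 2254720 and 195795 to 1222890 in that order. Endothelial miR-126 had medians of 12885, 10071, 11896 and 12033. Adipose markers (miR-193b, miR-365 and miR-378a, 4 of 7 rows above 0 in every library) had medians of 883 and 836 at 16 days and 1131 and 1120 at 3 months, in ranges of 482 to 1226, 576 to 1005, 1033 to 1356 and 589 to 1523. Epithelial markers (miR-200a, miR-200b, miR-200c, miR-141, miR-192 and miR-194, 3 of 13 rows above 0 in every library) had medians of 580 and 450 at 16 days and 1077 and 983 at 3 months, in ranges of 319 to 1182, 315 to 817, 630 to 1328 and 475 to 10953. Neural markers (2 of 8 rows above 0 in every library) had medians of 191 and 134 at 16 days and 305 and 342 at 3 months, in ranges of 118 to 306, 98.4 to 431, 205 to 577 and 108 to 675. Smooth muscle, adipose, epithelial and neural medians were thus higher at 3 months in both genotypes, with ranges that overlapped between the times. Medians of the fibroblast list were 3322 and 2459 at 16 days and 2680 and 2282 at 3 months, and those of the striated muscle list 635 and 660 and then 535 and 534. Leukocyte medians were 205 and 163 and then 148 and 180, and erythroid medians 331 and 245 and then 195 and 283. No marker row of these 9 lists was at 0 in every library. Their part in the members' values was not tested.

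The members were also set against each other within each library. Each tested member's log2(value + 1) was set against the mean of the 6, and the 5p arm of miR-322 against its 3p arm, in 4 comparisons. The offset of 1 leaves part of a library's scaling in these ratios, most for members near a signal of 1 such as miR-450b-5p. That member also passed the filter mainly through ieCre libraries. The 6 ratios to the mean sum to 0 in each library, and the comparisons share groups, so the ratios are not independent of one another. Of these 28 ratios 0 passed in exact two-sided permutation tests over libraries, the lowest adjusted p being 0.283, and 4 had an unadjusted exact p below 0.05. Those were miR-450b-5p over time in ieET-1 mice (from -1.87 ± 0.154 to -1.65 ± 0.184, exact p = 0.0216), miR-450b-5p between genotypes at 16 days (-1.87 ± 0.154 in ieET-1 and -1.57 ± 0.347 in ieCre, exact p = 0.0323), miR-322-5p over time in ieCre mice (from 1.10 ± 0.261 to 0.68 ± 0.431, exact p = 0.0367) and miR-322-3p between genotypes at 16 days (-0.50 ± 0.289 in ieET-1 and -0.87 ± 0.361 in ieCre, exact p = 0.0486). The ratio of the miR-322 arms was 1.97 ± 0.447 in ieCre and 1.61 ± 0.481 in ieET-1 mice at 16 days, and 1.48 ± 0.639 and 1.61 ± 0.414 at 3 months, on the log2 scale, with the smallest exact p of 0.121 over time in ieCre mice (adjusted p = 0.565).

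Across mice the members varied together only in part. With group means removed and without the near-identical pair, Pearson's r between the 15 pairs of tested members ran from -0.21 to 0.61 over 28 libraries, with a median of 0.22 and 12 of 15 above 0. Only the arms of miR-322 passed, miR-322-3p and miR-322-5p at r = 0.61 (permutation p = 0.00145, adjusted p = 0.0217) and Spearman's rho = 0.62 (permutation p = 0.00092, adjusted p = 0.0138), and without the 2 libraries farthest from the median of miR-322-3p r was 0.46. Removing the means of group by animal number range left r at 0.60, but it did not pass (permutation adjusted p = 0.106). It did not pass either without ieCre short term mouse 8754 (r = 0.58), ieCre long term mouse 9486 (r = 0.59) or 9491 (r = 0.53), or ieET-1 long term mouse 8150 (r = 0.56), with adjusted permutation p of 0.0526 to 0.116, and it passed without any 1 of the other 24 libraries. Mouse 8754 had the highest signal of the 30 libraries for miR-322-5p (19.8), miR-322-3p (5.85) and miR-450a-5p (8.83), and mouse 9491 the lowest for miR-322-5p (3.85), miR-322-3p (0) and miR-351-5p (12.6).

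**Figure D5:**
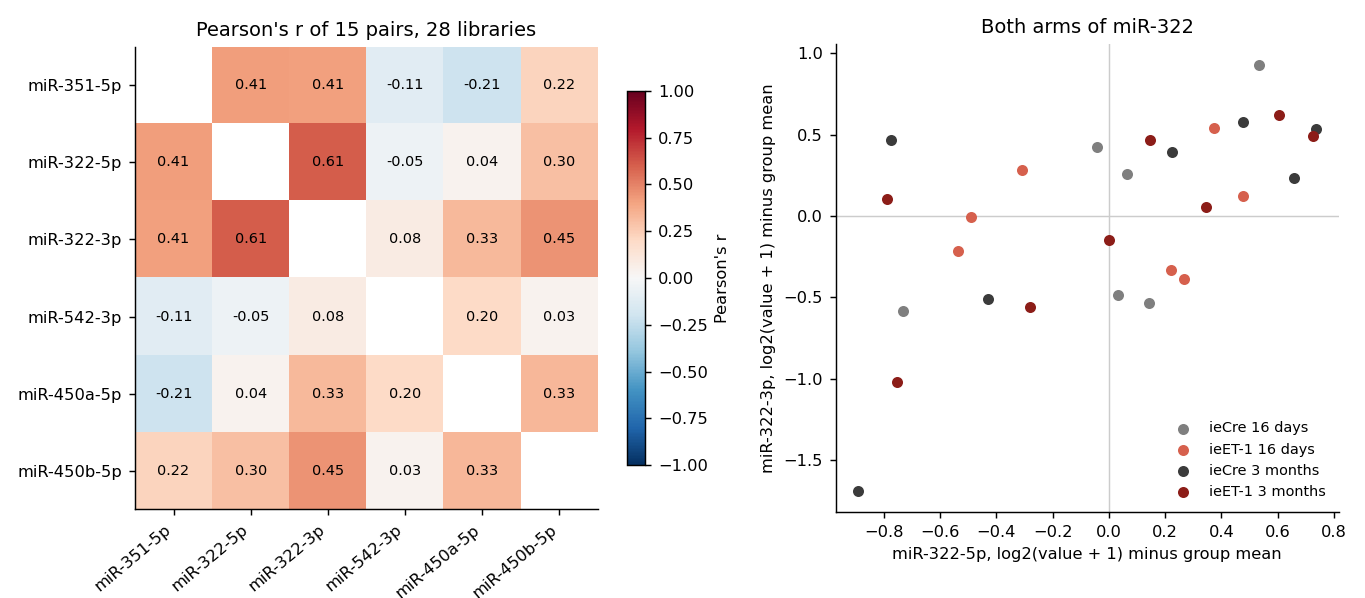
Left, Pearson's r between the 6 tested members over 28 libraries, with group means removed. Right, log2(value + 1) minus the group mean of miR-322-3p against miR-322-5p, 1 point per library, with the lowest point at the lower left for ieCre long term mouse 9491, and r = 0.61.

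miR-542-3p had the lowest median r with the other members of the 6. It had r of -0.11 with miR-351-5p, -0.05 with miR-322-5p, 0.08 with miR-322-3p, 0.20 with miR-450a-5p and 0.03 with miR-450b-5p. miR-351-5p had r of 0.41 with both arms of miR-322 and -0.21 with miR-450a-5p, and miR-450a-5p and miR-450b-5p, which lie next to each other, had 0.33. miR-450b-5p had r = 0.45 with miR-322-3p, the second highest of the 15, which fell to 0.14 without the 2 libraries farthest from the median of miR-322-3p. None of these pairs passed. As a description, the median r of a member with the 348 tested miRNAs outside the cluster was between -0.02 and 0.09, and its median r with the other 5 members between 0.03 for miR-542-3p and 0.41 for miR-322-3p. The 95th percentile of r with those 348 was 0.62 for miR-322-3p and 0.64 for miR-322-5p. Both are above the r of 0.61 between these arms, so an r of that size was not particular to the cluster. For the remaining members this percentile lay between 0.39 for miR-450b-5p and 0.59 for miR-351-5p. With log2 miRNA reads of the library the members had r of -0.32 (miR-542-3p) to 0.37 (miR-322-5p), so depth moved with them to a degree, and its part in these correlations was not tested. On the read share 11 of 15 pairs passed, with a median r of 0.51, and the part of library scaling in this was not tested.

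The tested miRNAs whose profile was most like the mean of the 6 members over these 28 libraries lay elsewhere in the genome. They were miR-872-5p (r = 0.72), miR-221-5p (r = 0.72), miR-26a-5p (r = 0.71), miR-145a-3p (r = 0.69) and miR-125b-5p (r = 0.68). Each was closer to the arms of miR-322 than to the other members: miR-26a-5p, for example, had r = 0.76 with miR-322-3p and 0.75 with miR-322-5p but -0.19 with miR-542-3p. miR-125b-5p, which shares the seed of miR-351-5p, had r = 0.52 with it.

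Both arms of the miR-15/16 and miR-125 families, whose 5p arms share seeds with the cluster, also had no call between genotypes. Of 7 tested rows of the miR-15/16 relatives, 5 with the seed of miR-322-5p and 2 of 3p arms without it, 0 were called by genotype or interaction, as were 0 of all 354. In ieCre mice 1 of the 7, miR-497-5p, fell over time by 1.06 ± 0.26 on the log2 scale (limma adjusted p = 0.0108), beside 28 of all 354 called (7.91%). There 6 of 7 were below 0, with a median of -0.37 against -0.13 over all 354. In ieET-1 mice 0 of these 7 passed, beside 21 of all 354 (5.93%), with miR-497-5p at -0.46 (limma adjusted p = 0.230) and a list median of -0.26 against -0.09. Of 5 tested rows of the miR-125 relatives, 2 with the seed of miR-351-5p and 3 of 3p arms without it, 1, the 3p arm miR-125b-1-3p, fell over time in both genotypes, by 0.94 ± 0.22 in ieCre and 0.74 ± 0.21 in ieET-1 mice (limma adjusted p = 0.0108 and 0.0294). The shares called over all 354 were again 7.91% and 5.93%, so 1 call in a list this short says little about the list. The seed-bearing miR-125a-5p and miR-125b-5p had log2 genotype differences of 0.47 and 0.13 at 16 days and -0.50 and -0.39 at 3 months, none passing (limma adjusted p of 0.854 to 0.990). Of 6 rows of imprinted growth-network miRNAs, only miR-298-5p was tested. It was 1 of the 21 miRNAs called over time in ieET-1 mice, where it fell by 0.72 ± 0.22 (limma adjusted p = 0.0482), with -0.44 ± 0.24 in ieCre mice (limma adjusted p = 0.220).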

How the data were processed

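Small RNA libraries of mouse mesenteric arteries were prepared with a TruSeq kit (input 1 µg of RNA), per the labels' protocols. Tools named in the submitters' processing notes, with no roles, are edgeR 3.6.8, R 3.2.3, STAR 2.3.1, FastQC and bcl2fastq 1.8.4. Steps of trimming, mapping, annotation and filtering were not given in the sources used here. Each value is a normalized signal that the authors deposited for 1 miRNA in 1 library. All values (100%, within 0.001) were whole multiples of the value of 1 read, so reads were recovered by division. Of 32 labelled samples 30 have a column; the other 2, both ieCre, were not analysed here.

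miRNAs with a signal of at least 1 in at least 8 libraries (354 of 870, 99.99% of reads) entered a two-sided limma fit (version 3.58.1, R 4.3.3) of 4 group means to log2(value + 1), with a trend for intensity and Benjamini-Hochberg adjustment over all 354. This scale understates changes of low miRNAs. Alternatives were edgeR 4.0.16 and DESeq2 1.42.0 on the recovered reads, other scalings (TMM, median-ratio, read total), pseudocounts, filters and left-out libraries. Ratios were compared by exact permutation, correlations by 100000 permutations within groups. p-values measure the spread between libraries labelled as separate mice. Only the limma fit, with reads scaled to library totals, and the exact permutation test were tried on simulated data. The simulated differences were larger than the genotype differences of the members. The edgeR, DESeq2 and correlation steps were not tried in this way.

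The cluster members and comparison lists were chosen with earlier results of these data known. Every member is named; outside the cluster, the 5 tested miRNAs closest to the members' mean profile and up to 4 members per list with the smallest p could be named. The table's miR-126, miR-142 and miR-497 were taken for miR-126a, miR-142a and miR-497a. Sequences are from RefSeq (GRCm38.p6; 696 of 870 rows matched by name), positions from GENCODE M21 (GRCm38). Figures were drawn with matplotlib 3.10.9.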

Additional observations from a re-analysis of the deposited data

Results flagged for a closer look

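In ieCre mice at 16 days, mouse 9957 had a miR-542-3p signal of 7.68, far from the next value of 3.345, a gap of 0.697 of the group's range. It rests on 16 reads in the library with the fewest reads, 1820166. In ieET-1 mice at 16 days, mouse 8991 had a miR-542-3p signal of 6.035 against 3.067 for the next, a gap of 0.642 of the range, from 54 reads. These 2 were the only samples so far from the rest in 24 groups of the 6 tested members, and chance flags about 1 in 20 groups, or 1.2 of 24. Limma called 0 members between genotypes with either library left out.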

How the results depend on the processing

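The counts of members called kept their value of 0 for genotype at 16 days and 3 months and for the interaction under all 46, 46 and 43 alternatives (pseudocount, filter, scaling, tool, array weights, groups in the fit, animal number range, the near-identical pair, libraries under 5000000 reads, and each library left out). Over time the count was 4 in ieCre and 1 in ieET-1 mice on the share of all miRNA reads, and 1 in ieET-1 mice with array weights. On the read share the median log2 change of all miRNAs was -0.93 in ieCre and -0.47 in ieET-1 mice. The cause of these calls was not tested. Leaving out single libraries gave 0 to 0 members in every comparison. The count of ratios that differ stayed at 0 in all 34 alternatives. The count of correlated pairs was 11 on the read share, 0 with means of group by animal number range removed, and 0 to 1 with single libraries left out; without libraries under 5000000 reads, an alternative added after the data were seen, 1 pair passed but it was miR-322-3p and miR-450a-5p. No paired analysis was possible because the animal numbers of the groups do not repeat. Depth limits the low members most: a value of 1 stood for few reads in the shallow libraries, and 4 libraries had under 5000000 reads.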
